A study of Mus musculus with 12 samples.

Results

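The genes described here encode the subunits of the mitochondrial respiratory chain, the group of protein complexes that pass electrons from nutrients to oxygen and store the energy as ATP. Members were the probes whose gene symbol starts with Ndufa, Ndufb, Ndufc, Ndufs, Ndufv, Sdha to Sdhd, Uqcr, Cox4 to Cox8 or Atp5, and which were detected on all 3 arrays of at least 1 T cell fraction. The symbols gave 100 probes, and 98 of them, for 93 genes, were detected and tested, among 18012 tested probes of the series. Uqcrq and Cox8c were not detected often enough to be tested. Of the 98 members, 37 belong to complex I, 4 to complex II, 9 to complex III, 21 to complex IV, 17 to complex V, and 10 are assembly factors whose symbols start with Ndufaf or Sdhaf. The rule used no measured difference between fractions, and 96 of the 98 probes were listed above background in all 12 libraries.

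Complexes I and II take up electrons from NADH and succinate, complex III passes them through cytochrome c to complex IV, and complex IV hands them to oxygen. Complexes I, III and IV pump protons across the inner mitochondrial membrane, and complex V, the ATP synthase, lets them flow back to make ATP. Resting T cells draw on this chain for most of their ATP, and activated T cells enlarge their mitochondria while also raising glycolysis.

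RNA came from Peyer's patches, the lymphoid follicles of the small intestine, of C57BL/6 mice aged 10 weeks. Males and females were pooled in groups of 3 to 5, and the cells were sorted to over 98% purity into 4 fractions of 3 arrays each. DN cells carried TCRβ and neither CD4 nor CD8β, CD8 cells carried TCRβ and CD8β, γδ cells carried the γδ T cell receptor and no TCRβ, and CD4 cells carried TCRβ and CD4. No treatment or mutation was named, and CD8α was not used in the gates. The labels say that RNA was collected 3 times and do not say which mice each collection shared, so the p-values below measure the spread between these samples only.

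The sort genes went against the label in 2 libraries. Cd8b1, which encodes the CD8β chain used for sorting, read 8.57 log2 units in the library labelled CD8 1, against 13.8 and 13.62 in CD8 2 and 3. It read 13.91 in the library labelled γδ 1, against 8.29 and 8.14 in γδ 2 and 3. Cd163l1, a scavenger receptor gene typical of γδ T cells, had 8.23 in the library labelled CD8 1 and 6.1 in that labelled γδ 1, against 8.57 and 8.48 in γδ 2 and 3. Both genes are given here only as a check of the labels, and differences of the members are given with all 12 libraries and without these 2. The arrays also came in 2 series by their array names, with replicate 1 of every fraction in the first and replicates 2 and 3 in the second. Replicates 2 and 3 correlated at 0.997 to 0.998 across probes within a fraction, and replicates 1 and 2 at 0.933 to 0.968. When the libraries labelled CD8 1 and γδ 1 are left out, CD8 and γδ are held by the second series alone, so the values were also fitted with the array series as a block. That fit, called the blocked fit below, uses 3 DN, 2 CD8, 2 γδ and 3 CD4 libraries. The array series moved the members too: the median size of the series difference was 0.23 log2 over the members and 0.09 over all tested probes. It passed the test for 47 of 98 members, against 37.9% of all tested probes, and Cox4i1 lay furthest apart at 1.69 log2 higher in the second series.

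The mean signal of marker lists of other cells moved with the fractions. The mean log2 signal of a B cell list of 11 probes was 7.84 to 8.18 in DN libraries, 6.38 and 6.42 in CD8 2 and 3, 7.78 and 7.83 in γδ 2 and 3, and 6.31 to 6.59 in CD4 libraries. An intestinal epithelium list of 11 probes had 6.88 to 7.2 in DN libraries, 6.28 and 6.23 in CD8 2 and 3, 6.66 and 6.64 in γδ 2 and 3, and 6.33 to 6.45 in CD4 libraries. A plasma cell list of 4 probes had 6.96 to 7.26 in DN libraries and 6.45 to 6.67 in CD4 libraries, and a macrophage and dendritic cell list of 10 probes had 6.52 to 6.6 and 6.26 to 6.32. The plasma cell list had 6.25 and 6.33 in CD8 2 and 3, and 7.09 and 7.21 in γδ 2 and 3. The macrophage and dendritic cell list had 6.21 and 6.22 in CD8 2 and 3, and 6.49 and 6.5 in γδ 2 and 3. Genes within these 2 lists differed. Of the plasma cell list, Mzb1 had 7.66 to 8.52 in DN and 6.25 to 6.38 in CD4, and Xbp1 7.68 to 8.56 and 7.46 to 8.44. Of the other list, Itgax had 8.16 to 8.64 in DN and 5.86 in CD4. Csf1r had 6.57 to 6.63 and 6.67 to 6.81, and Cd68 6.6 to 6.76 and 6.58 to 6.88. A cell cycle list of 8 probes had 7.18 to 7.52 in DN libraries, 6.9 and 6.91 in CD8 2 and 3, 7.07 and 7.15 in γδ 2 and 3, and 7.22 to 7.46 in CD4 libraries. Of these lists only the macrophage and dendritic cell list had a probe detected on no array, 1 in each fraction. The part of these cells in the differences below was not tested, and in bulk RNA fewer cells of a type and less RNA per cell cannot be told apart.

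With all 12 libraries, few members differed between fractions. In DN against CD4, 1 of 98 passed limma's test at a Benjamini-Hochberg adjusted p under 0.05, and it was lower in DN, while 2.22% of all tested probes passed in either direction and 1.41% were lower. In CD8 against CD4, 1 of 98 passed and was lower in CD8, with 1.05% of all tested probes passing and 0.866% lower. In both comparisons the member was Atp5g2. No member passed limma's test in DN against CD8, DN against γδ, γδ against CD4 or γδ against CD8, where 5, 5, 6 and 3 members had an unadjusted p under 0.05 and the shares of all probes passing were 0.0167%, 0.0111%, 1.14% and 0%. The test over all 4 fractions at once passed for 0 members and 1.17% of all probes. With the replicate number as a block, which goes with the array series, 6 members passed in DN against CD4 (4.97% of all probes), 3 in CD8 against CD4 (2.15%), 1 in γδ against CD4 (2.84%) and 1 in the test over all 4 fractions (2.45%).

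With those 2 libraries left out, the counts were 3 in DN against CD4 (10.3% of all tested probes), 6 in DN against CD8 (12.5%), 4 in DN against γδ (0.922%), 3 in CD8 against CD4 (5.16%), 7 in γδ against CD4 (8.73%) and 3 in γδ against CD8 (7.08%). DN against γδ was the one comparison in which the members' share lay above that of all probes. The test over all 4 fractions passed for 9 members and for 14.2% of all probes.

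In the blocked fit the largest group of members that moved one way was lower in DN than in CD4. There, 22 of 98 members were lower in DN and 1 was higher, while 13.6% of all tested probes were lower and 11.2% higher. The median log2 difference was -0.07 over the members and -0.01 over all probes. The count was 15 without DN 3. For that fit, and for those below without 1 library of the second series, the share of all probes was not counted. Without DN 1 or CD4 1 the count was 40. The block then takes up the lone array left of the first series, so that this fit rests on replicates 2 and 3 alone, where 27.8% of all probes passed. The direction of the split did not turn with the scaling: on the deposited value table it was 16 members lower in DN and 2 higher, and with median scaling 29 were lower and 0 higher, with member medians of -0.23 and -0.24. Over all probes that passed, 45.1% were higher in DN in the blocked fit, 52.5% on the value table and 36.5% with median scaling.

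In DN against CD8, 16 members were lower and 8 higher in DN, with 13.7% of all probes lower and 12.1% higher. The count of 24 became 12 without CD8 3 and 39 on replicates 2 and 3 alone, where 31.9% of all probes passed. It was 10 lower and 2 higher on the value table (19.3% of all probes) and 12 lower and 2 higher with median scaling (20.7%). In DN against γδ, 12 were lower and 1 higher in DN, with 3.14% of all probes lower and 2.94% higher, and a median of -0.1 over the members. Those 13 became 3 without γδ 2 and 30 on replicates 2 and 3 alone, where 11.8% of all probes passed. On the value table, where the median of all probes stood at 0.12, 2 passed, both lower (0.772% of all probes). With median scaling 8 passed, all lower (2.8% of all probes).

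In CD8 against CD4, 13 members were lower and 5 higher in CD8, with 8.48% of all probes lower and 7.64% higher. There, 6 passed without CD8 3 and 37 on replicates 2 and 3 alone (22.8% of all probes). The split was 4 lower and 3 higher on the value table (8.58% of all probes passing), and 8 lower and 2 higher with median scaling (11.9%). In γδ against CD4, 12 were higher and 8 lower in γδ, with 9.82% of all probes higher and 11.5% lower. There, 10 passed without γδ 3 and 36 on replicates 2 and 3 alone (29.6% of all probes). The split was 5 higher and 3 lower on the value table (13.8% of all probes passing), and it turned with median scaling, to 5 higher and 9 lower (17.2%). In γδ against CD8, 14 were higher and 4 lower in γδ, with 8.97% of all probes higher and 10.3% lower. There, 5 passed without γδ 3 and 35 on replicates 2 and 3 alone (26.8% of all probes). In that comparison 3 were higher and 2 lower on the value table (12.5% of all probes passing), and 5 higher and 2 lower with median scaling (14.9%). The test over all 4 fractions passed for 34 of 98 members and for 34% of all probes, so the members' share was near that of other probes. In at least 1 of the 6 comparisons, 43 of 98 members and 41.8% of all probes passed, again near shares, and the counts by complex below are to be read against that 41.8%.

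**Figure D1:**
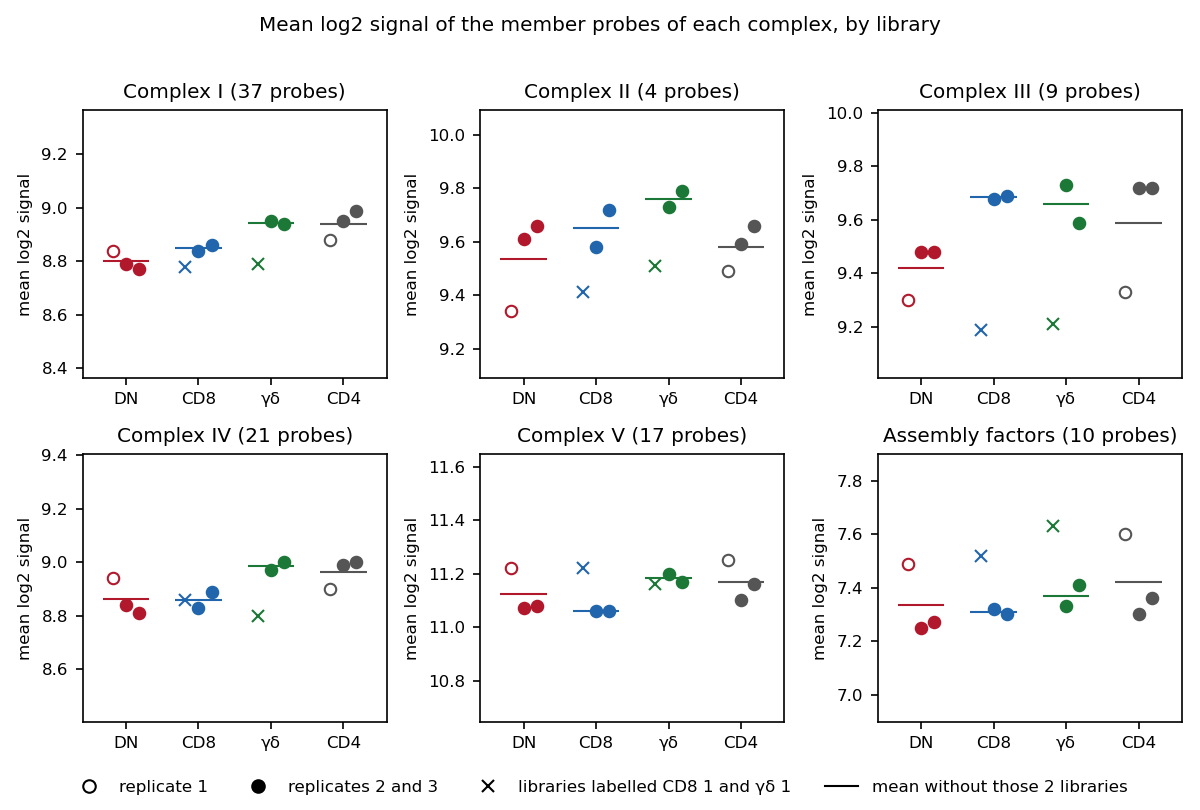
Mean log2 signal of the member probes of each complex in each of the 12 libraries, with fractions on the x axis, open circles for replicate 1, filled circles for replicates 2 and 3, crosses for the libraries labelled CD8 1 and γδ 1, and a line at the mean without those 2. Each panel spans the same height in log2 units, and the complex I mean is 8.77 to 8.84 in DN libraries and 8.88 to 8.99 in CD4 libraries.

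Taken complex by complex, the means moved by small amounts. The mean log2 signal of the complex I members was 8.84, 8.79 and 8.77 in DN libraries, 8.84 and 8.86 in CD8 2 and 3, 8.95 and 8.94 in γδ 2 and 3, and 8.88, 8.95 and 8.99 in CD4 libraries. DN lay below CD4 in every library, by 0.14 log2 over 3 libraries each and by 0.19 in replicates 2 and 3. The complex III mean was 0.25 lower and the complex IV mean 0.17 lower in DN than in CD4 in replicates 2 and 3, and the complex V mean was 0.06 lower. For complex II the same difference was 0.01. In CD8 against CD4 the complex III, IV and V means differed by -0.04, -0.14 and -0.07 in replicates 2 and 3, and complex II by 0.03. In γδ against CD4 the complex III, IV and V means differed by -0.06, -0.01 and 0.05, and complex II by 0.13. The size of these differences depended on the scaling. With all 12 libraries the complex V mean differed by -0.05 in DN against CD4, by -0.3 on the value table and by -0.32 with median scaling. In the same order complex II had -0.05, -0.18 and -0.21, and complex I -0.14, -0.26 and -0.27. Complex III had -0.17, -0.3 and -0.32, and complex IV -0.1, -0.21 and -0.25. These means are descriptions, and the plot of complex means shows that for complexes II and III replicate 1 lay below replicates 2 and 3 in every fraction.

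Complex I held 16 members that passed the blocked test in at least 1 comparison. Against CD4, 12 of its 37 members were lower in DN and none was higher in the blocked fit, in which 13.6% of all probes were lower. Without the block none of the 37 passed, either with all 12 libraries or with 10. Ndufs4, an accessory subunit needed for the assembly and stability of complex I, separated the fractions most clearly. Its log2 signal was 8.51, 8.94 and 8.89 in DN libraries 1 to 3, 9.53 and 9.5 in CD8 2 and 3, 9.9 and 9.99 in γδ 2 and 3, and 8.9, 9.27 and 9.38 in CD4 libraries 1 to 3. Within the second array series the order was γδ, CD8, CD4 and DN, with no overlap between neighbours. In the blocked fit Ndufs4 was lower in DN than in γδ by a log2 difference of -1.03 ± 0.04 (SE, adjusted p 0.000265), which is 0.49 of the γδ signal. It was -0.6 ± 0.04 against CD8 (adjusted p 0.000184) and -0.4 ± 0.04 against CD4 (adjusted p 0.000504). All 3 differences passed in each of the 10 fits that left out 1 library, and on both other scalings. With all 12 libraries none of them passed, the library labelled CD8 1 having 8.58 and that labelled γδ 1 having 8.85.

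**Figure D2:**
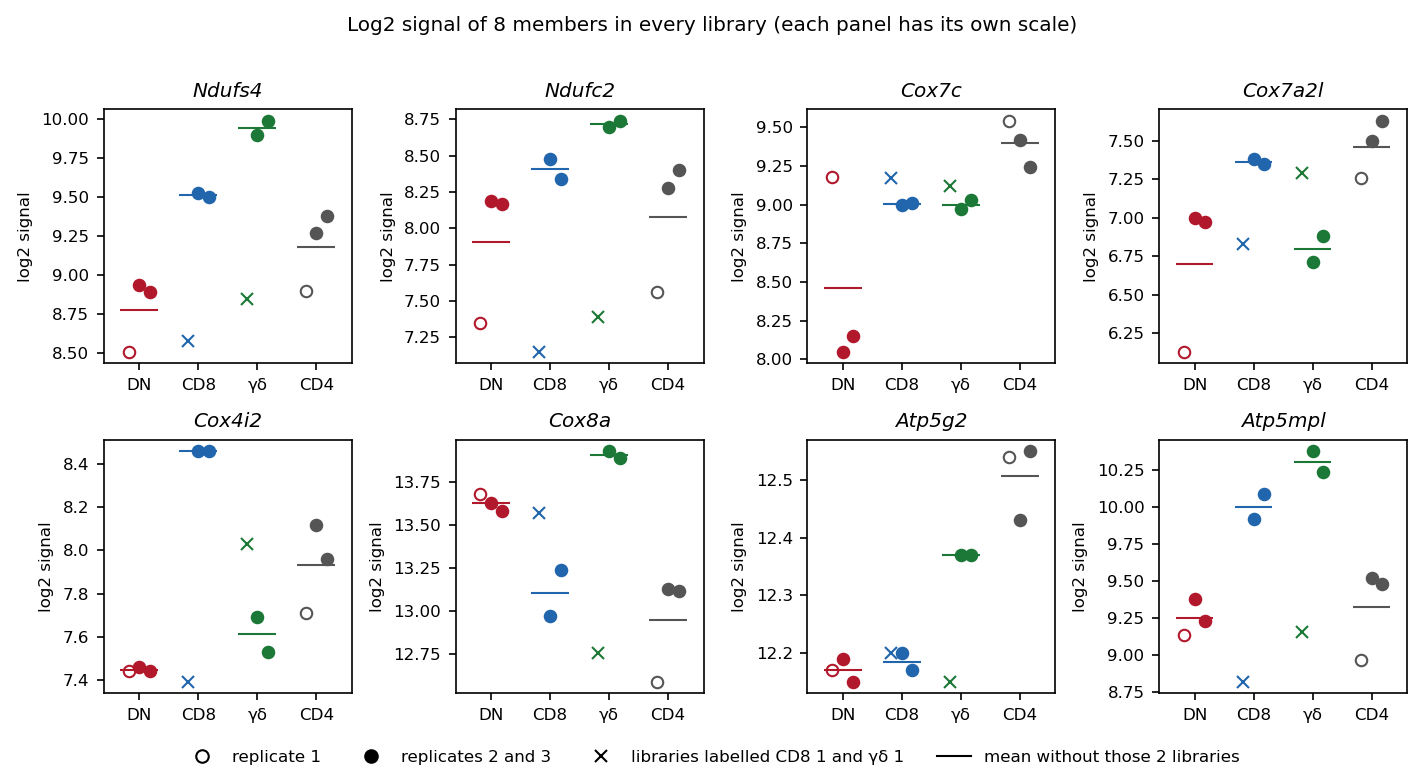
Log2 signal (y axis, own scale in each panel) of 8 members in the 12 libraries, with symbols as in the plot of complex means. Ndufs4, Ndufc2 and Atp5mpl are highest in γδ 2 and 3, Cox4i2 is highest in CD8 2 and 3 at 8.46 each, and Cox7c is lowest in DN 2 and 3 at 8.05 and 8.15.

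Other complex I members were also highest in γδ within the second series. Ndufa1, a small X-linked subunit of the membrane arm, had 11.52, 11.22 and 11.16 in DN, 11.68 and 11.67 in CD8 2 and 3, 11.92 and 11.88 in γδ 2 and 3, and 11.46, 11.47 and 11.47 in CD4. It differed by -0.65 ± 0.08 in DN against γδ (adjusted p 0.00769), by -0.43 ± 0.08 in DN against CD8 (0.00766) and by 0.49 ± 0.08 in γδ against CD4 (0.0058). The first of these had an adjusted p of 0.0608 without γδ 2. On the value table the adjusted p was 0.0662, 0.0127 and 0.134 in the order given, and with median scaling 0.0108, 0.00327 and 0.023. For Ndufa1 the library labelled CD8 1 had 11.31 and that labelled γδ 1 had 11.48, both below DN 1. Ndufc2, also of the membrane arm, differed by -0.54 ± 0.05 in DN against γδ (adjusted p 0.0037) and by 0.37 ± 0.05 in γδ against CD4 (0.00356), both passing with any 1 library left out. Neither passed without the block. On the value table the adjusted p was 0.142 and 0.299, and with median scaling 0.0466 and 0.11, in that order. The first-series values of Ndufc2 were 7.35 in DN 1, 7.56 in CD4 1, 7.15 in the library labelled CD8 1 and 7.39 in that labelled γδ 1. All of them lay below its second-series values, the lowest of which was 8.17, and CD4 1 was the highest of the first series.

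A further group of complex I members was lower in DN than in CD4, and some of them also in CD8. Ndufv2, a core subunit of the NADH-oxidising arm that carries an iron-sulfur cluster, had 8.28, 9.2 and 9.09 in DN and 9.11, 9.58 and 9.54 in CD4, so DN was below CD4 within each array series while the ranges overlapped across them. Its log2 difference was -0.55 ± 0.09 in DN against CD4 (adjusted p 0.00434) and -0.53 ± 0.1 in CD8 against CD4 (0.0157, and 0.0783 without CD8 2). Ndufb9 and Ndufb4, accessory subunits of the membrane arm, differed in DN against CD4 by -0.4 ± 0.05 (adjusted p 0.00159) and -0.43 ± 0.08 (0.00843). In CD8 against CD4 the differences were -0.4 ± 0.06 for Ndufb9 (0.00508) and -0.5 ± 0.09 for Ndufb4 (0.0141, and 0.0526 without CD4 2). Ndufb3, of the same arm, was lower in DN than in CD4 by -0.46 ± 0.08 (0.00689), Ndufs6 by -0.29 ± 0.06 (0.0109) and Ndufa11b, a copy of Ndufa11 whose probe may also bind that gene's RNA, by -0.43 ± 0.05 (0.00176). For these 6 genes the DN against CD4 difference passed in all 10 blocked fits that left out 1 library and on both other scalings. Without the block it passed for none of them.

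Another group was lowest in CD8 2 and 3, and not in the library labelled CD8 1, which had 11.16 for Ndufb7. Ndufb7 had 11.14, 10.54 and 10.46 in DN, 10.15 and 10.19 in CD8 2 and 3, 10.37 and 10.33 in γδ 2 and 3, and 11.21, 10.79 and 10.67 in CD4. The log2 difference was 0.36 ± 0.05 in DN against CD8 (adjusted p 0.00396) and -0.53 ± 0.05 in CD8 against CD4 (0.00144). Ndufs8, a core subunit with 2 iron-sulfur clusters, was 0.47 ± 0.07 in DN against CD8 (0.00284) and -0.53 ± 0.07 in CD8 against CD4 (0.00325). The brighter of the 2 probes of Ndufa13, also known as Grim19, was 0.54 ± 0.09 in DN against CD8 (0.00605) and -0.61 ± 0.09 in CD8 against CD4 (0.00638). The other Ndufa13 probe had log2 signals of 6.1 to 6.78 and differences of -0.14 ± 0.05 (0.12) and 0.1 ± 0.05 (0.265), so the probes disagreed. On the deposited value table the DN against CD8 differences of Ndufb7, Ndufs8 and Ndufa13 kept their sign at 0.13, 0.46 and 0.24 and did not pass. Ndufa3, highest of complex I in DN against CD4, differed by 0.17 ± 0.07 (0.134).

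Promoter sequence is shown for 5 members with different patterns over the fractions in the blocked fit: Atp5g2 (lower in DN than in CD4), Ndufaf4 (higher in CD8 than in CD4), Ndufb7 (lower in CD8 than in CD4), Ndufs4 (lower in DN than in γδ) and Cox8a (higher in γδ than in CD4). The 150 bases before each gene's start are from RefSeq on GRCm38.p6, read 5′ to 3′ on the gene's strand. Capitals mark GCATGCG or its reverse complement CGCATGC, which overlap at the centre of the site bound by nuclear respiratory factor 1 (NRF1), or CCGGAAG on either strand, bound by GABP; both factors are known regulators of respiratory chain genes.
Atp5g2, chr15:102671048-102671197, minus strand: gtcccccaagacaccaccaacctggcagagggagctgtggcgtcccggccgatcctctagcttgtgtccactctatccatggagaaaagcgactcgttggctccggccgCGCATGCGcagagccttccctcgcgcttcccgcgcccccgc
Ndufaf4, chr4:24897933-24898082, plus strand: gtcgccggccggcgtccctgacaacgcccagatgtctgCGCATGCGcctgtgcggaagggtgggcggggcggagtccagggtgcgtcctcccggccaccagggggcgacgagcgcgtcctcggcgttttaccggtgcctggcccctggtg
Ndufb7, chr8:83566608-83566757, plus strand: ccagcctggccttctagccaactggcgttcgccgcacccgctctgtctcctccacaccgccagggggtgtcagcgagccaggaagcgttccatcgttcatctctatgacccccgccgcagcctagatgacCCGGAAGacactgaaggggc
Ndufs4, chr13:114388095-114388244, minus strand: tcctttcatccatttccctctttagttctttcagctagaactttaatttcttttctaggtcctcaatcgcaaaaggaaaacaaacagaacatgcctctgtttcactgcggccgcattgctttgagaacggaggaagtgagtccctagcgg
Cox8a, chr19:7217617-7217766, minus strand: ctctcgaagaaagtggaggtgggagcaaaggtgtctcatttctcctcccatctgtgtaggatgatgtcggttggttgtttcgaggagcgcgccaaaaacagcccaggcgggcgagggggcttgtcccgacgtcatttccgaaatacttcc

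The NRF1 letters begin 41 bases before the start of Atp5g2 and 112 bases before that of Ndufaf4, and the GABP letters begin 20 bases before that of Ndufb7. Neither motif is in the windows of Ndufs4 and Cox8a. Over 250 bases before the start, the NRF1 letters were in 10 of 77 member genes with a sequence (13%) and in 3.43% of the 27025 genes of the table. The GABP letters, searched with their reverse complement CTTCCGG, were in 15 of the 77 (19.5%) and in 7.83% of all genes. The members were detected genes, while the 27025 include genes that were not tested, since 16942 genes of the series had a tested probe. The shares over tested genes alone were not counted. These are matches of letters in a window and describe no binding. Among the members with the NRF1 letters, Atp5g2 and Ndufaf4 had different patterns over the fractions.

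Complex II, which is also the succinate dehydrogenase of the citric acid cycle, had 1 of 4 members that passed in a comparison. Sdha, the flavoprotein subunit that oxidises succinate, had 9.72, 10.01 and 9.82 in DN, 10.07 and 10.2 in CD8 2 and 3, 9.96 and 9.89 in γδ 2 and 3, and 9.75, 9.9 and 9.86 in CD4. Its DN against CD8 difference of -0.23 ± 0.07 had an adjusted p of 0.0488 and passed in 1 of 10 fits that left out a library, with 0.239 without CD8 3. Sdhb, the iron-sulfur subunit, differed by -0.26 ± 0.1 in DN against CD4 (adjusted p 0.112) and -0.3 ± 0.12 in DN against γδ (0.212). The membrane anchors Sdhc and Sdhd differed in DN against CD8 by 0.33 ± 0.13 (0.116) and -0.34 ± 0.18 (0.222).

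In complex III, 3 of 9 members passed in at least 1 comparison. Uqcrfs1, the Rieske iron-sulfur protein, had 7.99, 8.86 and 8.81 in DN, 9.02 and 9.14 in CD8 2 and 3, 9.33 and 9.29 in γδ 2 and 3, and 7.98, 9.01 and 8.96 in CD4. γδ was highest within the second series. The log2 difference was 0.35 ± 0.05 in γδ against CD4 (adjusted p 0.00499, passing in all 10 fits with 1 library left out) and -0.44 ± 0.05 in DN against γδ (0.00794, and 0.0621 without γδ 2). Without the block neither passed. On the value table the adjusted p was 0.273 and 0.204, and with median scaling 0.0615 and 0.0413, in that order. Uqcr11, a small accessory subunit, was lower in DN than in CD4 by -0.35 ± 0.09 (0.0362, and 0.124 without DN 3). The dimmer of the 2 probes of Uqcrc2, a core subunit without a redox centre, differed by -0.5 ± 0.14 in DN against CD8 (0.0388, and 0.169 without CD8 3), and the brighter one by -0.16 ± 0.3 (0.744). Uqcrc1, the other core subunit, was 0.34 ± 0.08 in DN against γδ (0.0567), and Uqcrb was 0.2 ± 0.2 in DN against CD8 (0.514). Uqcrh-ps1, which carries a pseudogene symbol and may bind RNA of Uqcrh, was -0.41 ± 0.18 in that comparison (0.157).

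Complex IV had the widest range of differences, from -0.94 to 0.69 in DN against CD4. Cox7c, a small nuclear-encoded subunit, had 9.18, 8.05 and 8.15 in DN, 9 and 9.01 in CD8 2 and 3, 8.97 and 9.03 in γδ 2 and 3, and 9.54, 9.42 and 9.24 in CD4. Every DN library lay below every CD4 library, and DN 2 and DN 3 were over 1 log2 unit below DN 1. The DN against CD4 difference was -0.94 ± 0.17 (adjusted p 0.00765), and was -1.23 in replicates 2 and 3 and -0.36 in replicate 1. It passed in all 10 blocked fits that left out a library, and did not pass without the block. Against CD8 it was -0.75 ± 0.2 (0.0315, and 0.128 without CD8 3). Ndufa4, first described in complex I and now counted as a subunit of complex IV, had 8.94, 8.04 and 8 in DN and 8.92, 8.99 and 9 in CD4. DN was lower only in replicates 2 and 3, and its difference of -0.64 ± 0.19 (0.0488) became 0.158 in adjusted p without DN 3.

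Cox7a2l, also called Scaf1, which joins complexes III and IV into a supercomplex, had 6.13, 7 and 6.97 in DN, 7.38 and 7.35 in CD8 2 and 3, 6.71 and 6.88 in γδ 2 and 3, and 7.26, 7.5 and 7.63 in CD4. DN and γδ lay below CD4 with no overlap. The difference was -0.77 ± 0.11 in DN against CD4 (adjusted p 0.00329) and -0.86 ± 0.13 in γδ against CD4 (0.00468). Both passed in all 10 blocked fits with a library left out and on both other scalings, but not without the block. In DN against CD8 the difference was -0.47 ± 0.13 (0.0394, and 0.141 without CD8 2). The library labelled γδ 1 had 7.29 and that labelled CD8 1 had 6.83. C57BL/6 mice are known to carry a short form of this protein, which the probe cannot tell apart from the long one.

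The isoforms of subunit 4 moved differently. Cox4i2, an isoform known for its induction by low oxygen and its high level in lung, had 7.44, 7.46 and 7.44 in DN, 8.46 and 8.46 in CD8 2 and 3, 7.69 and 7.53 in γδ 2 and 3, and 7.71, 8.12 and 7.96 in CD4. CD8 was highest and DN lowest, with no overlap of any DN library with another fraction apart from the library labelled CD8 1 at 7.39. The library labelled γδ 1 had 8.03. The difference was -0.96 ± 0.09 in DN against CD8 (adjusted p 0.000534), -0.48 ± 0.08 in DN against CD4 (0.00503) and -0.85 ± 0.1 in γδ against CD8 (0.00145), each passing with any 1 library left out and on both other scalings. Cox4i1, the isoform found in most tissues, was -0.3 ± 0.06 in DN against CD4 (0.0155, and 0.061 without DN 3) and -0.44 ± 0.07 in DN against γδ (0.0228, and 0.11 without γδ 2). Its values of 9.1 in DN 1 and 9.35 in CD4 1 stood far below 10.82 and 10.7 in DN 2 and 3 and 11.16 and 11 in CD4 2 and 3.

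Cox8a, the subunit 8 isoform of most tissues, was the 1 member that passed as higher in DN than in CD4. It had 13.68, 13.63 and 13.58 in DN, 12.97 and 13.24 in CD8 2 and 3, 13.93 and 13.89 in γδ 2 and 3, and 12.59, 13.13 and 13.12 in CD4. The difference was 0.69 ± 0.13 in DN against CD4 (adjusted p 0.00918) and 0.89 ± 0.15 in γδ against CD4 (0.00733). The scaling decided part of this: DN against CD4 was 0.33 on the value table (0.206) and 0.28 with median scaling (0.174). γδ against CD4 was 0.67 (0.0461) and 0.7 (0.0193) on them, and had an adjusted p of 0.05 without γδ 2 in the blocked fit. DN against CD8, 0.6 ± 0.15 in the blocked fit (0.0276, and 0.142 without CD8 2), had the opposite sign on the value table at -0.03 (0.935). Cox6c, another subunit of strong signal, likewise gave 0.43 ± 0.07 in DN against CD8 (0.00449) and -0.12 (0.659) on the value table and -0.08 (0.663) with median scaling.

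Several isoforms of other tissues were near background in all fractions. The heart and skeletal muscle isoforms Cox6a2, Cox7a1 and Cox8b had log2 signals of 5.79 to 5.9, 5.79 to 6.17 and 6.05 to 6.23 over the 12 libraries, where a spot without signal would stand at 5.64, the log2 of the added offset. None passed in any comparison of the blocked fit. The 3 probes of Cox6b2, a testis isoform, had 5.78 to 5.97, 5.86 to 5.94 and 6.43 to 6.7, and the first of them passed in γδ against CD4 at 0.14 ± 0.02 (adjusted p 0.00654, and 0.0505 without γδ 3) and in DN against γδ at -0.12 ± 0.02 (0.036, and 0.187 without γδ 3), with no such difference on the other 2. Cox7b2, also of testis, had 5.93 to 6.42. Ndufa4l2, a hypoxia-induced relative of Ndufa4, had 7.19 to 7.6 and differed by -0.04 ± 0.05 in DN against CD4 (0.689). Of the isoforms found in most tissues, Cox7a2 passed in DN against CD8 at 0.46 ± 0.13 (0.0488, and 0.165 without CD8 2), while Cox6a1 was 0.28 ± 0.1 (0.0821), Cox6b1 0.02 ± 0.22 (0.962) and Cox7b 0.33 ± 0.2 (0.285) in that comparison. Cox5a, which had the highest DN against CD8 difference of complex IV without the 2 libraries, was 0.47 ± 0.14 (0.0521) in the blocked fit and passed in γδ against CD8 at 0.64 ± 0.15 (0.0243, and 0.116 without CD8 2).

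In complex V, 7 of 17 members passed in at least 1 comparison. Atp5g2 encodes the c subunit of the rotating ring, a protein that 3 genes supply in identical mature form. It had 12.17, 12.19 and 12.15 in DN, 12.2 and 12.17 in CD8 2 and 3, 12.37 and 12.37 in γδ 2 and 3, and 12.54, 12.43 and 12.55 in CD4. All DN and CD8 libraries lay below all CD4 libraries, the library labelled CD8 1 included at 12.2, and this was the 1 member that passed with all 12 libraries, by -0.34 ± 0.06 in DN against CD4 (adjusted p 0.0217) and -0.32 ± 0.06 in CD8 against CD4 (0.0426, and 0.0519 with the replicate number as a block). The DN against CD4 call with 12 libraries did not hold on the value table (0.282) or when DN 1, DN 2, DN 3, CD4 1 or CD4 3 was left out (0.0609 to 0.101). The CD8 against CD4 call did not hold on the value table or with median scaling (0.646), or in 11 of the 12 fits that left out 1 library (0.0572 to 0.183), and held without γδ 1. In the blocked fit the DN against CD4 difference was -0.34 ± 0.03 (0.000705), or 0.79 of the CD4 signal, and it was -0.65 on the value table (0.0105) and -0.69 with median scaling (0.00748). CD8 against CD4, at -0.31 ± 0.04 (0.00349), was -0.14 (0.676) and -0.23 (0.364) on those scalings. The γδ against CD8 difference of 0.18 ± 0.04 (0.0264) turned to -0.18 on the value table and -0.05 with median scaling. Atp5g1 and Atp5g3, the other genes of this subunit, differed in DN against CD4 by 0.07 ± 0.07 (0.548) and -0.01 ± 0.18 (0.977).

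Atp5mpl, a small membrane protein that accompanies the ATP synthase, had 9.14, 9.38 and 9.23 in DN, 9.92 and 10.09 in CD8 2 and 3, 10.38 and 10.24 in γδ 2 and 3, and 8.97, 9.52 and 9.48 in CD4. γδ and CD8 stood above DN and CD4 with no overlap, apart from the libraries labelled CD8 1 and γδ 1 at 8.82 and 9.16. The difference was -0.94 ± 0.11 in DN against γδ (adjusted p 0.00638, and 0.0544 without γδ 2), -0.64 ± 0.11 in DN against CD8 (0.00547) and 0.87 ± 0.11 in γδ against CD4 (0.00192). In DN against CD4 it was -0.08 ± 0.09 (0.612). The α and β subunit genes of the catalytic head differed in opposite directions in γδ against CD4. Atp5a1, the α subunit, was higher in γδ than in CD4 by 0.75 ± 0.13 (0.009, and 0.0644 without γδ 2) and in CD8 than in CD4 by 0.6 ± 0.13 (0.0266, and 0.135 without CD8 3). Atp5b, the β subunit that holds the catalytic sites, was lower in γδ than in CD4 by -0.36 ± 0.07 (0.0109, and 0.0526 without γδ 3) and higher in DN than in γδ by 0.44 ± 0.07 (0.0158, and 0.0723 without γδ 3). In γδ against CD4, Atp5a1 was 0.55 (0.108) on the value table and 0.58 (0.057) with median scaling, and Atp5b -0.49 (0.0864) and -0.46 (0.022). On these scalings Atp5a1 in CD8 against CD4 was 0.89 (0.0272) and 0.79 (0.0262), and Atp5b in DN against γδ 0.23 (0.549) and 0.15 (0.54).

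Atp5pb, a subunit of the peripheral stalk, had 11.8, 11.41 and 11.61 in DN, 11.02 and 10.67 in CD8 2 and 3, 11.08 and 10.93 in γδ 2 and 3, and 11.87, 11.29 and 11.5 in CD4. CD8 2 and 3 overlapped γδ 2 and 3, and these 4 libraries lay below DN and CD4. The difference was 0.63 ± 0.13 in DN against CD8 (adjusted p 0.0149, and 0.0775 without CD8 3), and 0.33 (0.341) on the value table. Atp5e, the ε subunit, had the highest DN against CD4 difference of complex V at 0.26 ± 0.08 (0.0695), and Atp5j2 the lowest without the 2 libraries, at -0.38 ± 0.12 (0.0693) in the blocked fit. In γδ against CD4, Atp5e passed at 0.37 ± 0.1 (0.0417, and 0.161 without γδ 3).

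**Figure D3:**
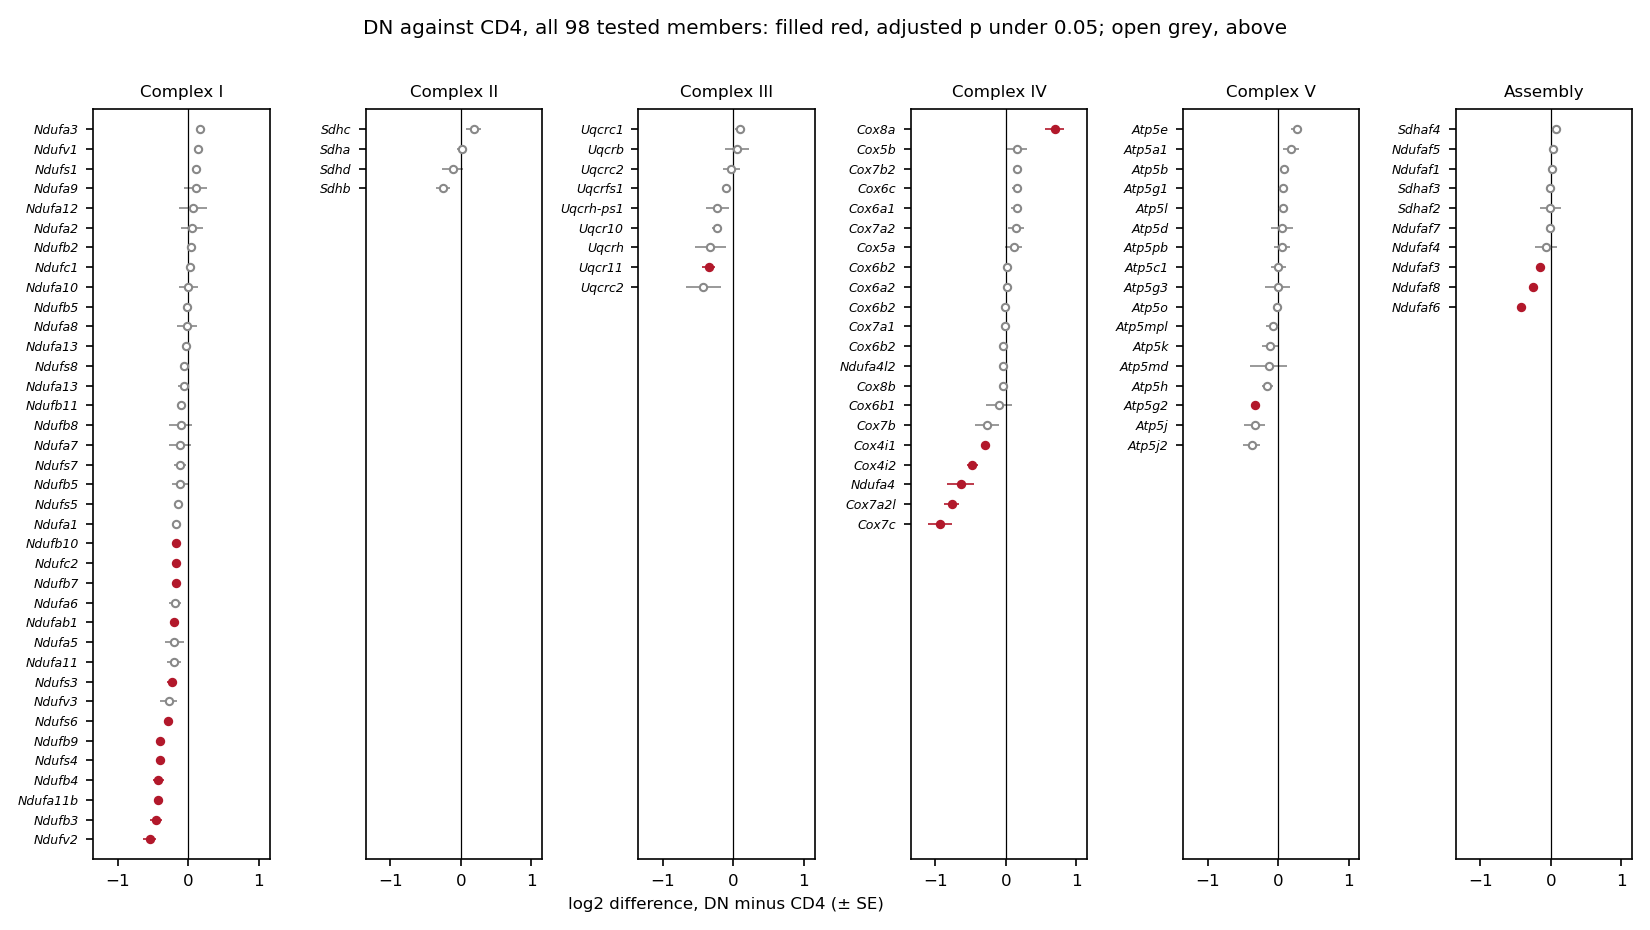
Log2 difference, DN minus CD4, with its SE (x axis) for each of the 98 tested members (y axis), by complex, from the blocked fit of 10 libraries. Filled red points passed at adjusted p under 0.05, 22 of them to the left of 0 and Cox8a to the right, and open grey points did not.

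Of the 10 assembly factors, 6 passed in at least 1 comparison. Ndufaf4, which helps to build complex I, had 9.21, 8.57 and 8.9 in DN, 9.55 and 9.53 in CD8 2 and 3, 8.89 and 9.38 in γδ 2 and 3, and 9.47, 8.59 and 8.82 in CD4. CD8 2 and 3 were highest within the second series. The difference was -0.85 ± 0.18 in DN against CD8 (adjusted p 0.014, and 0.0693 without CD8 3) and 0.79 ± 0.18 in CD8 against CD4 (0.029, and 0.121 without CD8 3). Ndufaf6 was lower than in CD4 in both DN, by -0.42 ± 0.05 (0.00181), and γδ, by -0.45 ± 0.06 (0.00321), each passing with any 1 library left out and on both other scalings. Neither passed without the block.

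Sdhaf4, which assists the loading of the flavoprotein of complex II, had 7.08, 6.88 and 6.94 in DN, 6.45 and 6.45 in CD8 2 and 3, 6.97 and 7.13 in γδ 2 and 3, and 6.84, 6.85 and 7 in CD4. CD8 2 and 3 lay below every other library, while the library labelled CD8 1 had 6.98. The difference was 0.51 ± 0.08 in DN against CD8 (adjusted p 0.00489), 0.6 ± 0.09 in γδ against CD8 (0.00376) and -0.43 ± 0.08 in CD8 against CD4 (0.0154, and 0.0808 without CD8 3). On the value table these were 1.11, 1.2 and -0.99, and all 3 passed there and with median scaling. Ndufaf3 and Ndufaf8 were lower in DN than in CD4 by -0.16 ± 0.03 (0.0172, and 0.0622 without CD4 2) and -0.26 ± 0.05 (0.012).

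**Figure D4:**
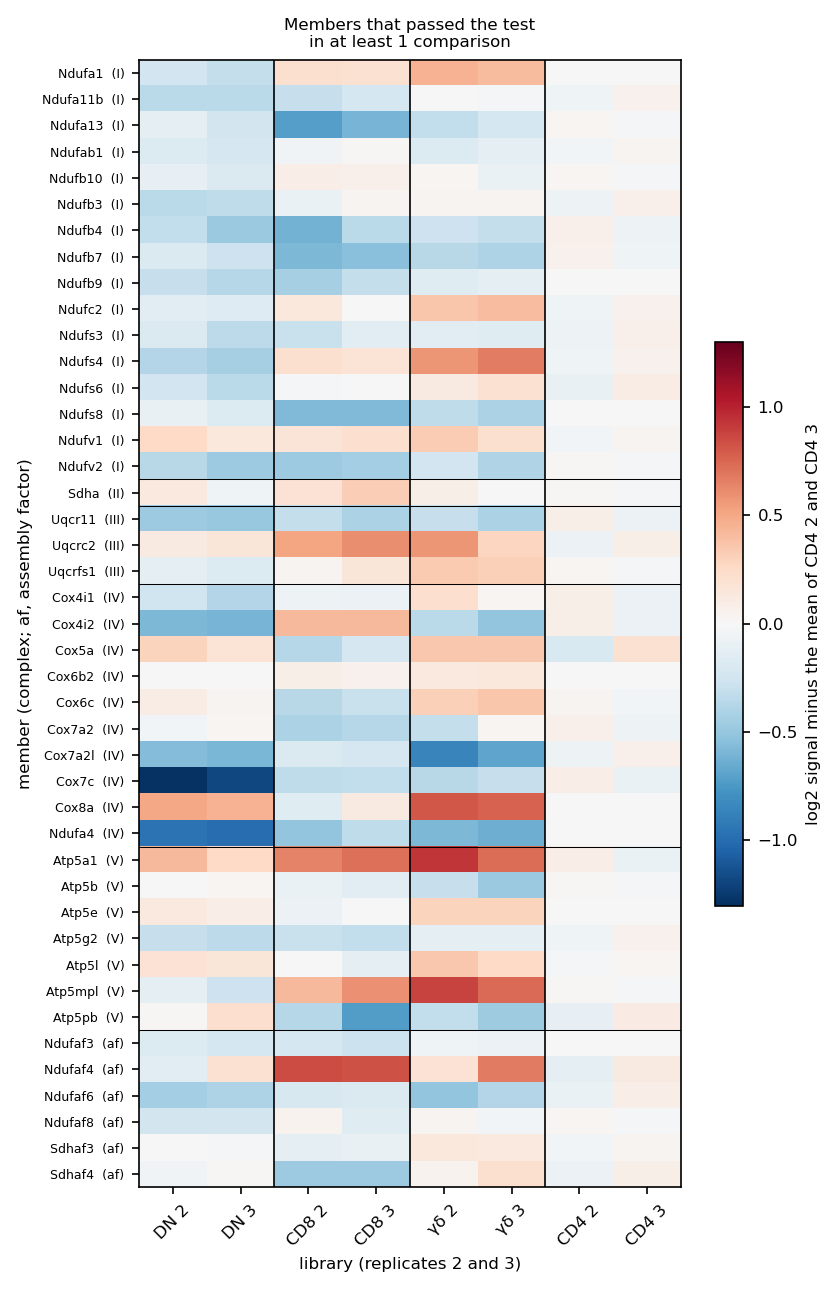
Log2 signal of the 43 members that passed the blocked test in at least 1 comparison (y axis, with complex), in the 8 libraries of replicates 2 and 3 (x axis), minus the mean of CD4 2 and CD4 3. Red is above and blue below CD4; values run from -1.28 to 0.93, with Cox7c and Ndufa4 lowest in DN and Atp5a1, Atp5mpl and Cox8a highest in γδ.

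The map of replicates 2 and 3 shows members of 1 complex on both sides in the same comparison. In CD8 against CD4, Atp5a1 and Atp5mpl of complex V were higher in CD8 and Atp5g2 and Atp5pb lower. Atp5mpl differed by 0.56 (adjusted p 0.0151, and 0.0943 without CD8 3) and Atp5pb by -0.58 (0.0309, and 0.145 without CD8 3). On the value table their adjusted p was 0.0703 and 0.192, and with median scaling 0.0509 and 0.0917. The 55 members not in the map passed in no comparison of the blocked fit.

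Other mitochondrial genes were counted from lists in the blocked fit, in which 11.2% of all probes were higher and 13.6% lower in DN than in CD4. Without the block these shares were 4.94% and 5.36% over 10 libraries, and 0.811% and 1.41% over all 12. Of 26 further assembly factors, 0 were higher and 6 lower in DN, with a median of -0.07; 3 were lower without the block and 1 with all 12 libraries. Uqcc3, which supports the assembly of complex III, was lowest at -0.82 ± 0.04 (adjusted p 2.55e-05), and was also lower in DN than in CD8 (-0.76 ± 0.05, 8.51e-05) and γδ (-0.61 ± 0.05, 0.00166). Cox17, a copper chaperone of complex IV, was lower in DN than in γδ by -0.64 ± 0.05 (0.00251). Of 79 mitochondrial ribosome probes, 3 were higher and 19 lower in DN than in CD4, with a median of -0.09; 1 was higher and 9 lower without the block, and 0 and 1 with all 12 libraries. Of 68 cytosolic ribosome probes, 2 were higher and 28 lower, with a median of -0.21; 10 were lower without the block and 1 with all 12 libraries.

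The citric acid cycle had 1 of 12 probes higher and 2 lower in DN than in CD4 in the blocked fit, with a median of 0.01, and none without the block. Idh3b, of the NAD-dependent isocitrate dehydrogenase, was lower by -0.21 ± 0.04 (adjusted p 0.0106). Among 16 probes for regulators of mitochondrial biogenesis, 1 was higher and 2 lower in DN than in CD4, against 0 and 1 without the block. Pprc1, a coactivator related to PGC-1, was lower by -0.31 ± 0.04 (0.00223), and Esrra, a nuclear receptor that drives respiratory chain genes, was higher by 0.25 ± 0.04 (0.00325). Pprc1 was highest in CD8, at -0.74 ± 0.05 in DN against CD8 (0.000102).

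Among 13 probes for mobile carriers and exchangers, 1 was higher and 2 lower in DN than in CD4, against 1 and 0 without the block. Gpd2, the mitochondrial glycerol-3-phosphate dehydrogenase that feeds electrons to the chain past complex I, was the one that was higher, by 1.58 ± 0.04 in DN against CD4 (adjusted p 1.62e-06). It was also higher in DN than in CD8, by 1.01 ± 0.05 (2.69e-05), and than in γδ, by 0.49 ± 0.05 (0.0041). Its DN against CD4 difference was larger than that of any of the 98 members. Slc25a4, an ADP/ATP carrier, was lower in DN than in CD8 by -0.87 ± 0.06 (0.000157) and higher in CD8 than in CD4 by 0.62 ± 0.06 (0.00134).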

How the data were processed

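RNA of 12 samples was measured on Toray 3D-Gene mouse 24k arrays read in 1 colour (Cy5). The scanner output holds a median intensity per spot, not normalized, per the file headers. The deposited value table holds linear intensity that follows each array's spot signals with a correlation of 1 and is scaled to a median of 25; how the authors made it is not given in the sources used here, so this comes from the values. A probe is detected where that table lists it. Genes are from the probe table supplied with the series; 25 probes marked by the scanner were left out. The number of arrays limits the precision, and the mean of the blank spots was 58.6 to 62.2 against a median spot of 70.7 to 77.9.

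The spot values went through normexp background correction (offset 50), a log2 transform and quantile normalization. limma 3.58.1 in R 4.3.3 (lmFit, eBayes) was fitted over all 18012 probes with 1 symbol detected on all 3 arrays of a fraction, two-sided, with Benjamini-Hochberg adjustment per comparison, over 12 libraries, over 10, and over 10 with the array series as a block. The offset narrows differences of dim probes. The code was tested on simulated data. Figures used Python 3.11.15 and matplotlib 3.10.9.

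The members and lists were chosen with earlier results of these data known. Members are named where they passed without the block (up to 6 per complex and direction), were highest or lowest of their complex in a DN comparison without the 2 libraries, belong to complex II, or are tissue isoforms; from the other lists up to 3 passing genes per comparison were taken. Members that passed only with the block, and the 5 whose promoters are shown, were chosen after their values were seen.

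For pairing, deviations from the fraction means were compared: 18 of 18 same-number pairs of arrays correlated above 0.1 (0.105 to 0.732), and 10 of 12 arrays had their best partner at the same number. Since replicate 1 is the first array series, pairing and series cannot be told apart.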

Additional observations from a re-analysis of the deposited data

How the results depend on the processing

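The counts of members passing moved with the libraries, the block and the scaling, and the cause was not tested. In the order DN against CD4, DN against CD8, DN against γδ, CD8 against CD4, γδ against CD4, γδ against CD8 and the test over 4 fractions, 1, 0, 0, 1, 0, 0 and 0 members passed with 12 libraries. Without the libraries labelled CD8 1 and γδ 1 these were 3, 6, 4, 3, 7, 3 and 9, and 23, 24, 13, 18, 20, 18 and 34 when the array series was also a block. With that block on 12 libraries they were 8, 0, 0, 6, 3, 0 and 6, and 8.17%, 0.505%, 0.0222%, 3.05%, 4.16% and 0% of all probes passed in the 6 comparisons. With the replicate number as a block on 12 libraries they were 6, 0, 0, 3, 1, 0 and 1; beside the calls named with the results, the replicate block made Atp5a1 pass in γδ against CD4 (adjusted p 0.0315) and changed no other followed call. Without replicate 1 of every fraction they were 40, 39, 30, 37, 36, 35 and 60, and 27.8%, 31.9%, 11.8%, 22.8%, 29.6% and 26.8% of all probes passed in the 6 comparisons. On the deposited value table with 12 libraries DN against CD4 and CD8 against CD4 both had 0, and with median scaling CD8 against CD4 had 0. Without background correction, without the filter on dim probes and with 1 probe per symbol, each count was as with 12 libraries. When 1 array was left out of the 12, the counts ranged from 0 to 3, 0 to 2, 0 to 1, 0 to 1, 0 to 2, 0 to 0 and 0 to 3. Shares of all probes passing then ranged from 0.75% to 5.6%, 0.0111% to 6.64% and 0.00555% to 0.122% in the 3 DN comparisons. In the other 3 they ranged from 0.527% to 2.33%, 0.55% to 4.08% and 0% to 0.122%. For the test over 4 fractions, the share of all probes was not counted in these fits. Nor was it counted without replicate 1 or with the series block on 12 libraries.

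The other scalings and left-out libraries of the blocked fit of 10 libraries were chosen after seeing the data: it gave 18, 12, 2, 7, 8, 5 and 15 on the value table and 29, 14, 8, 10, 14, 7 and 34 with median scaling. Of the members that passed in it, the sign held on both scalings except for Cox8a and Cox6c in DN against CD8 and Atp5g2 in γδ against CD8. Of 571 repeats of 26 single differences of named members, 472 stayed on their side of the threshold, 79 came to pass and 20 ceased to, with no sign turned where either value passed; Atp5b in DN against γδ, at 0.26 with 12 libraries, was -0.07 on the value table and -0.02 with median scaling, passing in none of the 3. Dim probes near the offset, such as Cox6a2, can show little.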
